A study of Mus musculus with 26 samples.

Results

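The 10 genes described here are the CXC chemokine ligands Cxcl1, Cxcl2, Cxcl5, Cxcl9, Cxcl10, Cxcl12, Cxcl14 and Cxcl16, the CX3C ligand Cx3cl1 and its receptor Cx3cr1. They were taken by gene symbol, and each symbol matched 1 of the 53465 genes listed for muscle and 1 of the 55487 genes listed for cultured cells. RNA was sequenced from the tibialis anterior (TA) muscle of 6-week-old C57BL/6J mice, given as male in the methods, on days 0, 1, 3, 5 and 10 of an injury by cardiotoxin (CTX), a toxin from cobra venom that lyses muscle fibres, with 2 libraries per day. RNA was also sequenced from C2C12 cells, a mouse myoblast line that fuses into myotubes when serum is withdrawn, with 2 libraries in each of 4 groups. The groups were control and Cas9M3 cells in growth medium (GM) and on day 3 in differentiation medium (DM3). Cas9M3 cells were a puromycin-selected line that carried dCas9-KRAB, a repressor driven by the hUbC promoter, with guide RNAs, driven by the hU6 promoter, against the promoter of Mettl3, the catalytic subunit of the m6A methyltransferase. The construct in the control cells is not given in the sources used here, and the series' design text calls the derived cells a knockout where the methods describe repression. The methods name saline as the control for CTX, and 1 supplementary sheet heads the day 0 averages as saline, so it is not settled whether day 0 muscle was untouched or given saline. The labels do not say that the libraries of a group came from separate animals or cultures, so each p-value measures only the spread between these libraries, which may be technical.

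Chemokines are small secreted or membrane-bound proteins that steer leukocytes along gradients through G protein-coupled receptors. In injured muscle, neutrophils enter first and monocytes and macrophages follow, and chemokine ligands from muscle, endothelial and immune cells take part in this recruitment. Within the CXC class, ligands with an ELR motif before the first cysteine act on CXCR2 and attract neutrophils, whereas the ligands induced by interferon-gamma lack this motif and act on CXCR3.

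The cysteine pattern that names the classes is visible in the coding sequences of the 9 ligands, which are shown because the ligands are described below by these classes. Each stretch begins 3 codons before the first cysteine of the mature pattern and ends with the next cysteine, with the codons of both cysteines in capitals. The sequences are GENCODE M21 transcripts (GRCm38), written 5′ to 3′ on the strand of the gene, and 8 of the 9 stretches lie within exon 2. The stretch of Cxcl14 is split by an intron between exons 1 and 2.
Cxcl1, chr5:90891487-90891504, + strand: gagctgcgcTGTcagTGC
Cxcl2, chr5:90904133-90904150, + strand: gaactgcgcTGTcaaTGC
Cxcl5, chr5:90759718-90759735, + strand: gagctgcgtTGTgttTGC
Cxcl9, chr5:92326842-92326859, - strand: aatgcacgaTGCtccTGC
Cxcl10, chr5:92348181-92348198, - strand: acggtccgcTGCaacTGC
Cxcl12, chr6:117171499-117171516, + strand: agctaccgaTGCcccTGC
Cxcl14, chr13:56295915-56296110, - strand: gggtccaagTGTaagTGT
Cxcl16, chr11:70459127-70459144, - strand: gctggaagtTGTtctTGT
Cx3cl1, chr8:94778042-94778065, + strand: atgacgaaaTGCgaaatcatgTGC
The 3 codons before the first cysteine encode Glu-Leu-Arg in Cxcl1, Cxcl2 and Cxcl5 and in none of the other 6 ligands. The 8 CXC ligands have 1 codon between the cysteines and Cx3cl1 has 3. Of the CXC ligands, 5 lie on chromosome 5, where Cxcl5, Cxcl1 and Cxcl2 lie in 1 cluster on the + strand and Cxcl9 and Cxcl10 in another on the - strand. The receptor gene Cx3cr1 lies at chr9:119901616-120069879 on the - strand.

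Promoters from RefSeq (GRCm38.p6, 250 bases before to 50 after the start of the gene) were matched to 8 of the 10 genes, all except Cxcl5 and Cxcl16. They were searched on both strands for the NF-kB consensus, for an interferon-type element, written as TTTC, any 2 bases and TTTC, and for TTCNNNGAA. The NF-kB consensus was found in Cxcl1, Cxcl2 and Cxcl10, that is 3 of 8, against 4.51% of all 32851 promoters. The interferon-type element was found in Cxcl10 and Cxcl14 (3.44% of all promoters) and TTCNNNGAA in Cxcl14 alone (8.30% of all promoters). The windows of Cxcl1, Cxcl2 and Cxcl10, the genes with an NF-kB match, are shown with the match in capitals.
Cxcl1, NF-kB consensus, chr5:90891164-90891193, + strand: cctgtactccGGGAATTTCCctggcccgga
Cxcl2, NF-kB consensus, chr5:90903792-90903821, + strand: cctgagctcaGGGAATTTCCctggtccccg
Cxcl10, NF-kB consensus, chr5:92348973-92349002, - strand: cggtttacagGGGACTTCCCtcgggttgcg
Cxcl10, NF-kB consensus, chr5:92349029-92349058, - strand: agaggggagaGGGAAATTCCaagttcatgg
Cxcl10, interferon-type element on the opposite strand, chr5:92349083-92349112, - strand: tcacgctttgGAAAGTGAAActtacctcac
Cxcl1 and Cxcl2 share the same 10 matched letters, which with the next base also match on the opposite strand. A match describes letters in the window and is neither a bound site nor a cause.

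Values are FPKM, that is the number of fragments on a gene divided by its length and by the depth of its library. The steps between low values gave 14140000 to 18780000 reads on genes in the muscle libraries and 14270000 to 29550000 in the C2C12 libraries, where 1 read on a gene of 1 kb was worth 0.0495 to 0.0817 FPKM and 0.0314 to 0.103 FPKM. Mettl3, the targeted gene, was at 4.68 to 5.65 FPKM in the 4 control C2C12 libraries and at 0.0805 to 0.331 FPKM in the 4 Cas9M3 libraries. Xist, the RNA of the inactive X chromosome, was at 5.77 to 10.0 FPKM in both libraries of day 0, both of day 10 and replicate 2 of day 3, and at most at 0.152 FPKM in the other 5 muscle libraries, although the methods name male mice. Day and Xist status therefore cannot be told apart where day 1 or day 5 is compared with day 0. A term for Xist-expressing libraries, used below, rests on the day 3 libraries alone. The fibre genes Ckm (1010 to 7580 FPKM) and Acta1 (5990 to 23300 FPKM) were high in every muscle library. In GM, replicate 1 libraries held more Acta1 (106 and 67.2 FPKM) than replicate 2 libraries (9.24 and 2.41 FPKM), in control and Cas9M3 cells alike.

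In regenerating muscle the 10 chemokine genes did not rise together. Cxcl1 and Cxcl5 were highest on day 1, Cxcl16 and Cx3cr1 on day 3, and Cxcl9 and Cxcl10 on days 3 and 5. Cxcl2 was lower on days 3 and 5 than on day 0, whereas Cxcl12, Cxcl14 and Cx3cl1 passed the test in no comparison. Genes were tested with limma on log2(FPKM + 0.1), where all 10 passed the filter of 0.5 FPKM in at least 2 libraries, and a call means an adjusted p of 0.05 or less. The smallest two-sided p of an exact permutation test on 2 against 2 libraries is 0.333, so every p rests on the spread that limma shares between days and genes. Against day 0, the chemokine genes called were 1 of 10 on day 1 (6% of all 16753 genes tested were called), 5 of 10 on day 3 (48.8% of all genes) and 5 of 10 on day 5 (25.5% of all genes). On day 3 the share of chemokine genes called was thus near that of all genes. On day 10 limma called 0 of 10 (0.00597% of all genes, 1 gene), with 3 of the 10 at an unadjusted p under 0.05 (1697 of all 16753 genes). Between days 1 and 3, 6 of 10 were called (31.1% of all genes), and between days 3 and 10, 4 of 10 (37.9% of all genes). Between days 3 and 5, 0 of 10 were called (12.7% of all genes), with 2 at an unadjusted p under 0.05 (4920 of all 16753 genes).

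**Figure D1:**
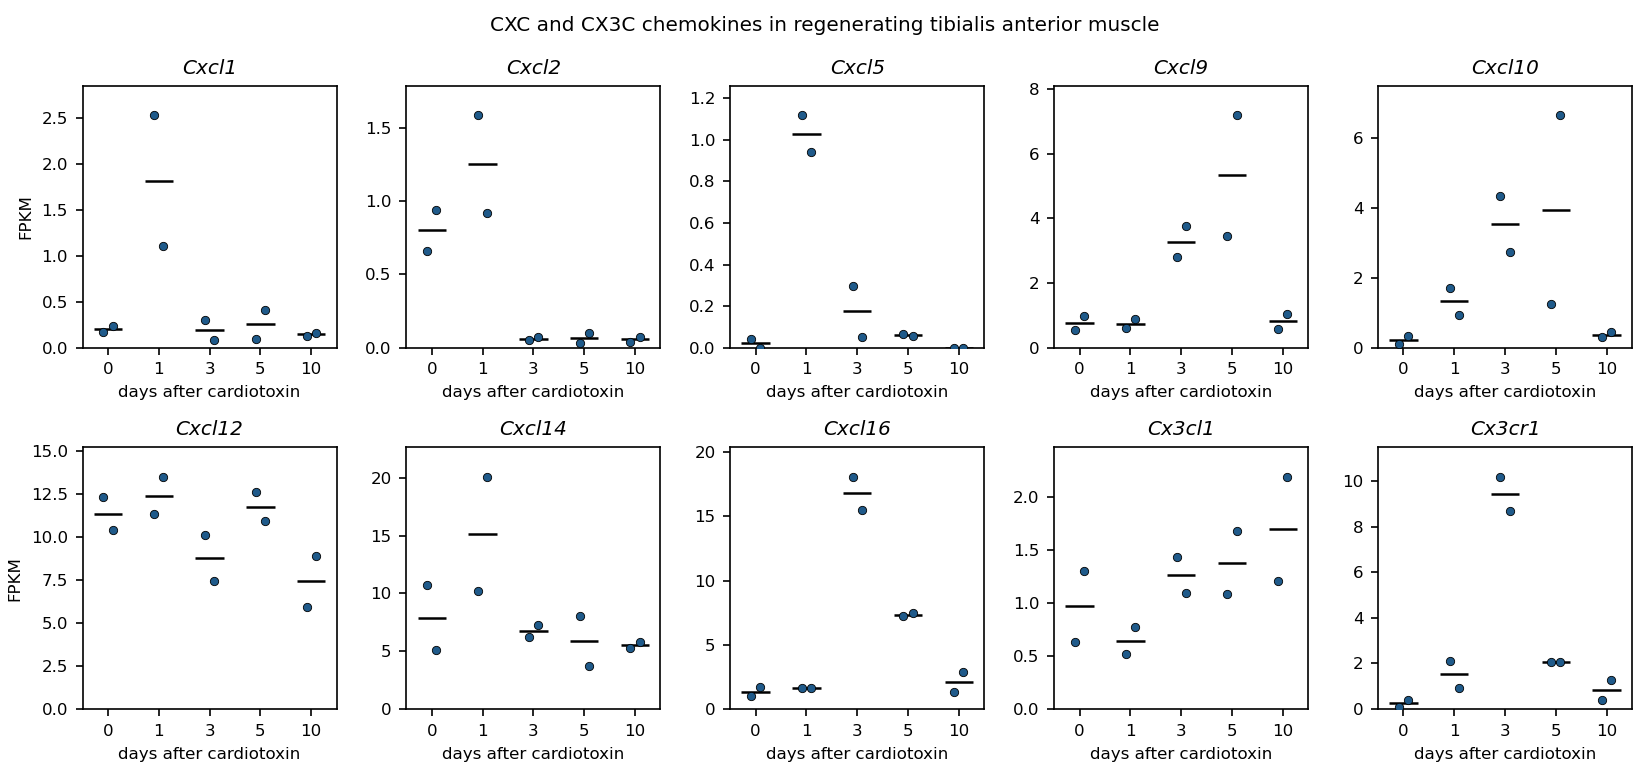
FPKM of the 10 chemokine genes (y axis, linear from 0, scaled separately per gene) by day after cardiotoxin (x axis, evenly spaced labels). Each point is 1 library and each bar the mean of the 2 libraries of a day. Cxcl1 and Cxcl5 stand out on day 1, Cxcl16 (18.1 and 15.5 FPKM) and Cx3cr1 (10.2 and 8.70 FPKM) on day 3, and the 2 day 5 libraries lie far apart for Cxcl10 (1.25 and 6.67 FPKM).

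Cxcl1, Cxcl2 and Cxcl5 are the ELR ligands that draw neutrophils through CXCR2. Cxcl1 was at 0.171 and 0.240 FPKM on day 0, 2.53 and 1.10 on day 1, 0.297 and 0.0791 on day 3, 0.0982 and 0.406 on day 5, then 0.131 and 0.161 on day 10. Cxcl5 was at 0.0431 and 0 FPKM on day 0, 1.12 and 0.940 on day 1, 0.299 and 0.0531 on day 3, 0.0659 and 0.0544 on day 5, and 0 in both libraries of day 10. Both day 1 libraries lay above all 8 others for these 2 genes. Cxcl2 was at 0.660 and 0.942 FPKM on day 0, 1.59 and 0.920 on day 1, 0.0490 and 0.0717 on day 3, 0.0297 and 0.0981 on day 5, then 0.0395 and 0.0729 on day 10. Cxcl2 thus overlapped between days 0 and 1 and was lower in every library from day 3 on, where its values came from 1 to 4 reads.

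From day 0 to day 1 Cxcl5 rose by 3.24 on the log2 scale (SE 0.62, adjusted p = 0.0333). Only 1 read on day 0 stands against 53 on day 1, a ratio of 49.8 with an exact 95% interval of 8.56 to 2000, for counting error only. Cxcl1 changed by 2.55 (SE 0.63, adjusted p = 0.0560) and Cxcl2 by 0.56 (SE 0.45, adjusted p = 0.468), and neither was called. From day 1 to day 3 all 3 ELR ligands fell, Cxcl1 by 2.73 (SE 0.63, adjusted p = 0.0161), Cxcl2 by 3.04 (SE 0.45, adjusted p = 0.00436) and Cxcl5 by 2.19 (SE 0.62, adjusted p = 0.0335). Cxcl1 and Cxcl5 each passed the filter only through their 2 day 1 libraries, so the filter favoured their calls in comparisons with day 1. Cxcl2 passed the filter only through days 0 and 1, so the filter favoured its calls of lower values on later days. Cxcl2 was also lower than on day 0, with -2.48 on day 3 (SE 0.45, adjusted p = 0.00356) and -2.47 on day 5 (SE 0.45, adjusted p = 0.0148). Its day 10 value of -2.52 was of like size (SE 0.45) and missed the threshold (adjusted p = 0.283).

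The call of Cxcl5 on day 1 was lost without any 1 library of days 0, 3 or 5, and without either day 1 library Cxcl5 no longer passed the filter. With a term for Xist-expressing libraries the day 1 change of Cxcl5 was 1.85 (SE 0.86) and was not called. The fall of Cxcl1 from day 1 to day 3 was not called without replicate 2 of day 3 or with the Xist term, and that of Cxcl5 was not called without any 1 library of days 3 or 5 or with the Xist term. The call of Cxcl2 from day 1 to day 3 held without every single library.

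The neutrophil markers were read in the same libraries. The summed level of the 6 markers was 1.71 and 5.53 FPKM on day 0, 19.4 and 10.4 on day 1, 7.61 and 8.60 on day 3, 2.40 and 3.30 on day 5, then 0.674 and 1.63 on day 10. Of the 4 markers tested, 1 (Csf3r) was called higher on day 1 than on day 0 (3.53% of all genes were), and its values of 5.69 and 6.70 FPKM on day 3 lay above those of day 1 (3.44 and 3.10 FPKM). Csf3r passed the filter only through days 1, 3 and 5, so the filter favoured this call. S100a9 was at 10.0 and 4.23 FPKM on day 1 against 1.08 and 2.30 on day 0, and the defining markers Retnlg and Ly6g were at 0 in both day 1 libraries. Cxcr2, the receptor of the ELR ligands, was at 0 in both day 0 libraries, at 0.527 and 0.599 FPKM on day 1 and at most at 0.0536 FPKM from day 3 on. It fell from day 1 to day 3 by 2.52 on the log2 scale (SE 0.65, adjusted p = 0.0233). Cxcr2 passed the filter only through its day 1 libraries, which lay just over 0.5 FPKM, so the filter favoured this call. The part of neutrophil number in the ligand values was not tested, and in whole muscle fewer cells of a type and less RNA per cell cannot be told apart.

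Cxcl9 and Cxcl10 are induced by interferon-gamma and draw T and NK cells through CXCR3. Cxcl9 was at 0.532 and 0.968 FPKM on day 0, 0.602 and 0.883 on day 1, 2.79 and 3.75 on day 3, 3.46 and 7.20 on day 5, then 0.569 and 1.05 on day 10. All 4 libraries of days 3 and 5 lay above the other 6. Cxcl10 was at 0.107 and 0.333 FPKM on day 0, 1.71 and 0.946 on day 1, 4.36 and 2.74 on day 3, 1.25 and 6.67 on day 5, then 0.290 and 0.435 on day 10. Cxcl10 was already above both day 0 libraries on day 1 (2.20, SE 0.73, adjusted p = 0.110), and replicate 1 of day 5 lay within the range of day 1.

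Against day 0, Cxcl9 was higher by 2.02 on the log2 scale on day 3 (SE 0.44, adjusted p = 0.00747) and by 2.63 on day 5 (SE 0.44, adjusted p = 0.0128). Cxcl10 was higher by 3.57 on day 3 (SE 0.73, adjusted p = 0.00565) and by 3.34 on day 5 (SE 0.73, adjusted p = 0.0201). Cxcl9 also rose from day 1 to day 3 by 2.01 (SE 0.44, adjusted p = 0.0141). From day 3 to day 10 Cxcl9 fell by 1.93 (SE 0.44, adjusted p = 0.0122) and Cxcl10 by 2.96 (SE 0.73, adjusted p = 0.0163). Cxcl10 reached 0.5 FPKM only on days 1, 3 and 5, so the filter favoured its calls in comparisons with days 0 and 10. The day 3 rise of Cxcl9 was not called without replicate 1 of day 0 or replicate 2 of day 3, and its rise from day 1 to day 3 was not called without replicate 1 of day 1, without replicate 2 of day 3 or with the Xist term. The fall of Cxcl9 to day 10 was not called without replicate 2 of day 3 or replicate 1 of day 10, and that of Cxcl10 was not called without either day 3 library, without replicate 1 of day 10 or with the Xist term.

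Cxcr3, the receptor of both ligands, was at 0.139 and 0.216 FPKM on day 0, 0.732 and 1.09 on day 3, and 0 in both libraries of day 10. It rose to day 3 by 1.85 on the log2 scale (SE 0.46, adjusted p = 0.0130) and fell to day 10 by 3.31 (SE 0.46, adjusted p = 0.00183). Cxcr3 reached 0.5 FPKM only on days 3 and 5, so the filter favoured these calls. Ifng itself was at 0 in both day 0 libraries and at most at 0.117 FPKM on any day, below the filter. Of the 5 other genes of the interferon-gamma axis, 4 were higher on day 3 than on day 0 and 1, the receptor subunit Ifngr2, was lower (fell by 0.73, SE 0.19, adjusted p = 0.0160). The largest rises were those of the transcription factors Irf8 (2.57, SE 0.18, adjusted p = 0.000263) and Irf1 (1.26, SE 0.23, adjusted p = 0.00343) and of the receptor subunit Ifngr1 (1.25, SE 0.25, adjusted p = 0.00535). Of all genes tested, 24.5% were called higher in this comparison. The 6 T and NK cell markers summed to 0.123 and 0.594 FPKM on day 0, 0.407 and 0.582 on day 1, 2.94 and 3.42 on day 3, 2.30 and 2.36 on day 5, then 0.351 and 0.974 on day 10. The markers Cd3d and Cd4 could be tested and were higher on day 3. Cd3d passed the filter only through day 3 (0.545 and 0.614 FPKM) and Cd4 only through days 3 and 5, so the filter favoured these calls. Their part in the values of Cxcl9 and Cxcl10 was not tested.

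Cxcl16 and Cx3cl1 are membrane-anchored ligands that proteases of the ADAM family can shed, and Cx3cr1 is the receptor of Cx3cl1 on monocytes and macrophages. Cxcl16 was at 0.983 and 1.69 FPKM on day 0, 1.62 and 1.66 on day 1, 18.1 and 15.5 on day 3, 7.21 and 7.47 on day 5, then 1.30 and 2.92 on day 10. Its day 3 libraries lay above all others and its day 5 libraries above those of days 0, 1 and 10. Cx3cr1 was at 0.107 and 0.416 FPKM on day 0, 2.12 and 0.946 on day 1, 10.2 and 8.70 on day 3, 2.06 and 2.08 on day 5, then 0.417 and 1.29 on day 10. Cx3cr1 thus peaked on day 3 with no overlap with any other day. Cx3cl1, the ligand, was at 0.633 and 1.30 FPKM on day 0, 0.515 and 0.775 on day 1, 1.43 and 1.09 on day 3, 1.08 and 1.68 on day 5, then 1.21 and 2.19 on day 10. The days overlapped for Cx3cl1 apart from day 1, whose libraries lay below those of days 3, 5 and 10 and overlapped with day 0, and its largest change, 0.88 from day 1 to day 3 (SE 0.42), was not called (adjusted p = 0.145).

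From day 0 to day 3 Cx3cr1 rose by 4.87 on the log2 scale (SE 0.59, adjusted p = 0.000698) and Cxcl16 by 3.60 (SE 0.36, adjusted p = 0.000425), the largest changes among the 10 genes in that comparison. Both were still above day 0 on day 5, Cx3cr1 by 2.73 (SE 0.59, adjusted p = 0.0197) and Cxcl16 by 2.42 (SE 0.36, adjusted p = 0.0112). Cx3cr1 passed the filter only through days after day 0, so the filter favoured its calls against day 0. From day 1 to day 3 Cxcl16 rose by 3.28 (SE 0.36, adjusted p = 0.00242) and Cx3cr1 by 2.64 (SE 0.59, adjusted p = 0.0147). From day 3 to day 10 Cxcl16 fell by 3.04 (SE 0.36, adjusted p = 0.00107) and Cx3cr1 by 3.49 (SE 0.59, adjusted p = 0.00379). From day 3 to day 5 the changes of Cxcl16 (-1.18, SE 0.36, adjusted p = 0.0741) and Cx3cr1 (-2.14, SE 0.59, adjusted p = 0.0542) were not called, although the libraries of these days did not overlap for either gene. The rise of Cx3cr1 from day 1 to day 3 was not called without replicate 2 of day 1, without either day 3 library or with the Xist term. The Cxcl16 calls of day 3 against days 0, 1 and 10 held without every single library.

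The calls of day 5 against day 0 changed with single libraries. All 5, those of Cxcl2, Cxcl9, Cxcl10, Cxcl16 and Cx3cr1, were lost without replicate 1 of day 0, without replicate 2 of day 5 or with the Xist term, and 3 were left without replicate 1 of day 5. The directions were the same in each case. When 1 library was left out, the change ranged from -2.78 to -2.17 for Cxcl2, from 2.11 to 3.15 for Cxcl9 and from 2.06 to 2.78 for Cxcl16. Cx3cr1 gave 2.07 when replicate 1 of day 0 was dropped and 3.39 when replicate 2 of that day was dropped. Cxcl10 moved the most of the 5, to 2.18 when replicate 2 of day 5 was dropped and to 4.50 when replicate 1 of day 5 was dropped.

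**Figure D2:**
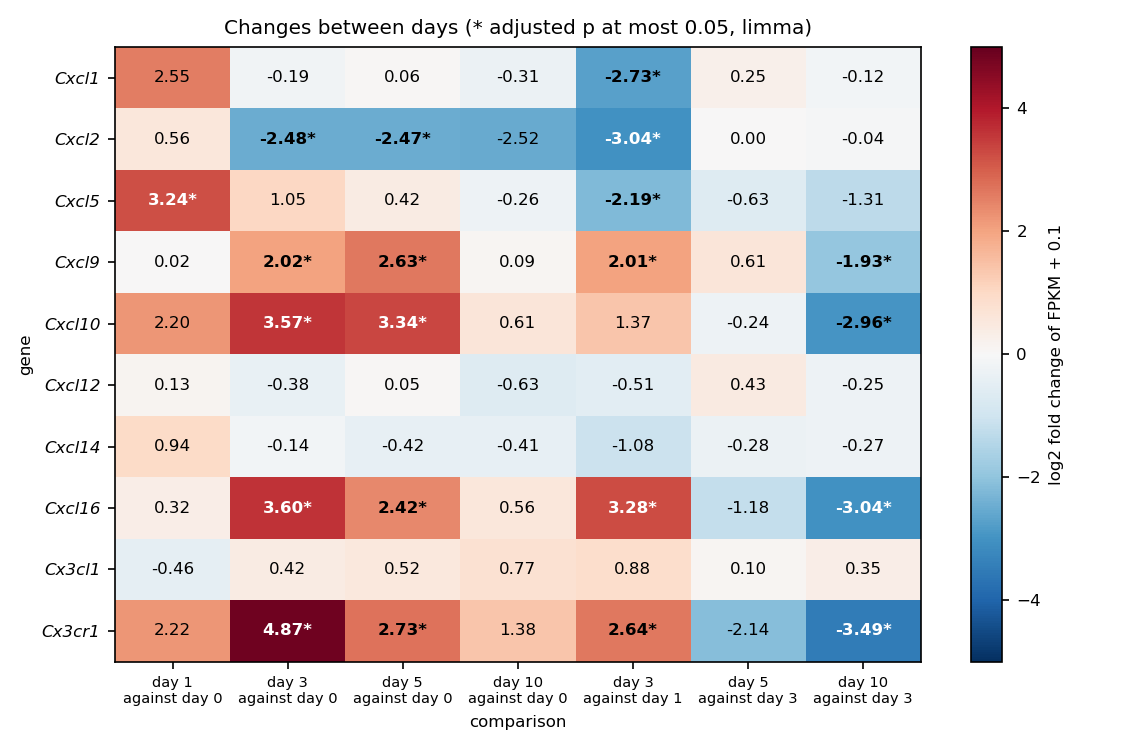
Log2 fold change of FPKM + 0.1 for each of the 10 genes (y axis) in the 7 comparisons between days (x axis). Red is higher and blue lower on the first-named day, and an asterisk with bold type marks an adjusted p of at most 0.05 in limma. Cxcl1 and Cxcl5 carry calls only in comparisons with day 1, Cxcl2 also for its lower values on days 3 and 5, Cxcl9, Cxcl10, Cxcl16 and Cx3cr1 in comparisons with days 3 and 5, and Cxcl12, Cxcl14 and Cx3cl1 carry none.

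Monocyte and macrophage markers, taken as a sum, were highest on day 3, as were Cxcl16 and Cx3cr1. The 8 markers, with 2 entries for Itgam, summed to 43.9 and 88.5 FPKM on day 0, 311 and 370 on day 1, 1420 and 1400 on day 3, 403 and 446 on day 5, then 64.0 and 248 on day 10. The sum had thus risen by day 1, when Cxcl16 overlapped with day 0. On days 1 and 3 the mean of Cd68 was 53.3 and 66.4 FPKM, that of the main Itgam entry 3.30 and 3.29, and that of Lyz2 244 and 1060. All 8 markers were higher on day 3 than on day 0 (24.5% of all genes were) and lower on day 10 than on day 3 (18.8% of all genes were). Of these, Ly6c2 passed the filter only through days 1, 3 and 5, so the filter favoured its calls. Apart from the lesser Itgam entry, which did not exceed 0.0211 FPKM, no entry was at 0 in any library. The 5 fibroblast markers summed to 56.9 and 168 FPKM on day 0, 46.8 and 143 on day 1, 637 and 717 on day 3, 792 and 890 on day 5, then 151 and 371 on day 10. Against day 0, 3 of 5 were called higher on day 3 (24.5% of all genes) and 4 of 5 on day 5 (12.9% of all genes). Endothelial markers summed to 39.5 and 30.8 FPKM on day 3 against 53.4 and 73.1 on day 0, and the 4 fibre markers to 9020 and 8490 against 30500 and 29800. The part of these cell types in the chemokine values was not tested. Of the shedding proteases, Adam10 was higher on day 3 than on day 0 by 0.97 on the log2 scale (SE 0.17, adjusted p = 0.00270) and Adam17 by 0.64 (SE 0.19, adjusted p = 0.0251). Dpp4, which truncates several CXC ligands, was higher by 1.56 (SE 0.53, adjusted p = 0.0409). Dpp4 passed the filter only through days 3 and 5, so the filter favoured this call. Cxcr6, the receptor of Cxcl16, was called on no day and reached 2.68 FPKM in replicate 1 of day 1 against 0.276 FPKM in replicate 2.

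The exons of 3 genes are shared in part with a gene on the other strand, and the strand setting of the authors' counting is not given in the sources used here. Cxcl16 shares 18.3% of its 3021 exon bases with Zmynd15, Cxcl10 shares 5.91% of 2252 with Art3, and Cx3cr1 shares 1.73% of 4505 with Gm33858. Zmynd15 followed Cxcl16, with 0.473 and 0.561 FPKM on day 0 and 5.40 and 4.63 on day 3, so reads of Cxcl16 and Zmynd15 cannot be told apart where they overlap. Art3 moved the other way from Cxcl10, from 48.9 and 40.3 FPKM on day 0 to 9.25 and 6.15 on day 3. Gm33858 was at most at 0.539 FPKM.

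Cxcl12 and Cxcl14 were the most abundant of the 10 genes on days 0, 1 and 10. Cxcl12, made by stromal and endothelial cells, retains progenitors and leukocytes through CXCR4 and is taken up by the atypical receptor ACKR3. It was at 12.3 and 10.4 FPKM on day 0, 11.3 and 13.5 on day 1, 10.1 and 7.44 on day 3, 12.6 and 10.9 on day 5, then 5.92 and 8.91 on day 10. The libraries of days 3 and 10 lay below those of days 0, 1 and 5 and overlapped each other, and the difference between day 10 and day 0 (-0.63, SE 0.24) was not called (adjusted p = 0.454). Cxcl14, a ligand found in skin, muscle and fat, was at 10.7 and 5.12 FPKM on day 0, 10.2 and 20.1 on day 1, 6.24 and 7.25 on day 3, 8.06 and 3.75 on day 5, then 5.32 and 5.78 on day 10. The day 1 libraries lay above those of days 3, 5 and 10 and overlapped with day 0, and its largest change, -1.08 from day 1 to day 3 (SE 0.48), was not called (adjusted p = 0.122).

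The receptors of Cxcl12 did change. Cxcr4 was at 1.29 and 3.23 FPKM on day 0, 7.38 and 5.56 on day 1, 24.0 and 20.7 on day 3, 6.18 and 7.49 on day 5, then 2.94 and 6.67 on day 10. It rose to day 3 by 3.38 on the log2 scale (SE 0.47, adjusted p = 0.00117) and fell to day 10 by 2.30 (SE 0.47, adjusted p = 0.00786), with the monocyte and macrophage sums given above highest on the same day. Ackr3 fell to day 3 by 0.74 (SE 0.26, adjusted p = 0.0449). In the list of 9 CXC and atypical receptors 6 were tested. Against day 0 limma called 2 higher and 1 lower on day 3 (48.8% of all genes called) and 1 higher on day 5 (25.5% of all genes called). On day 3 the share of receptors called was thus near that of all genes. On days 1 and 10 limma called 0 of the 6 (6% and 0.00597% of all genes called), with 3 and 1 at an unadjusted p under 0.05 (4493 and 1697 of all 16753 genes).

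**Figure D3:**
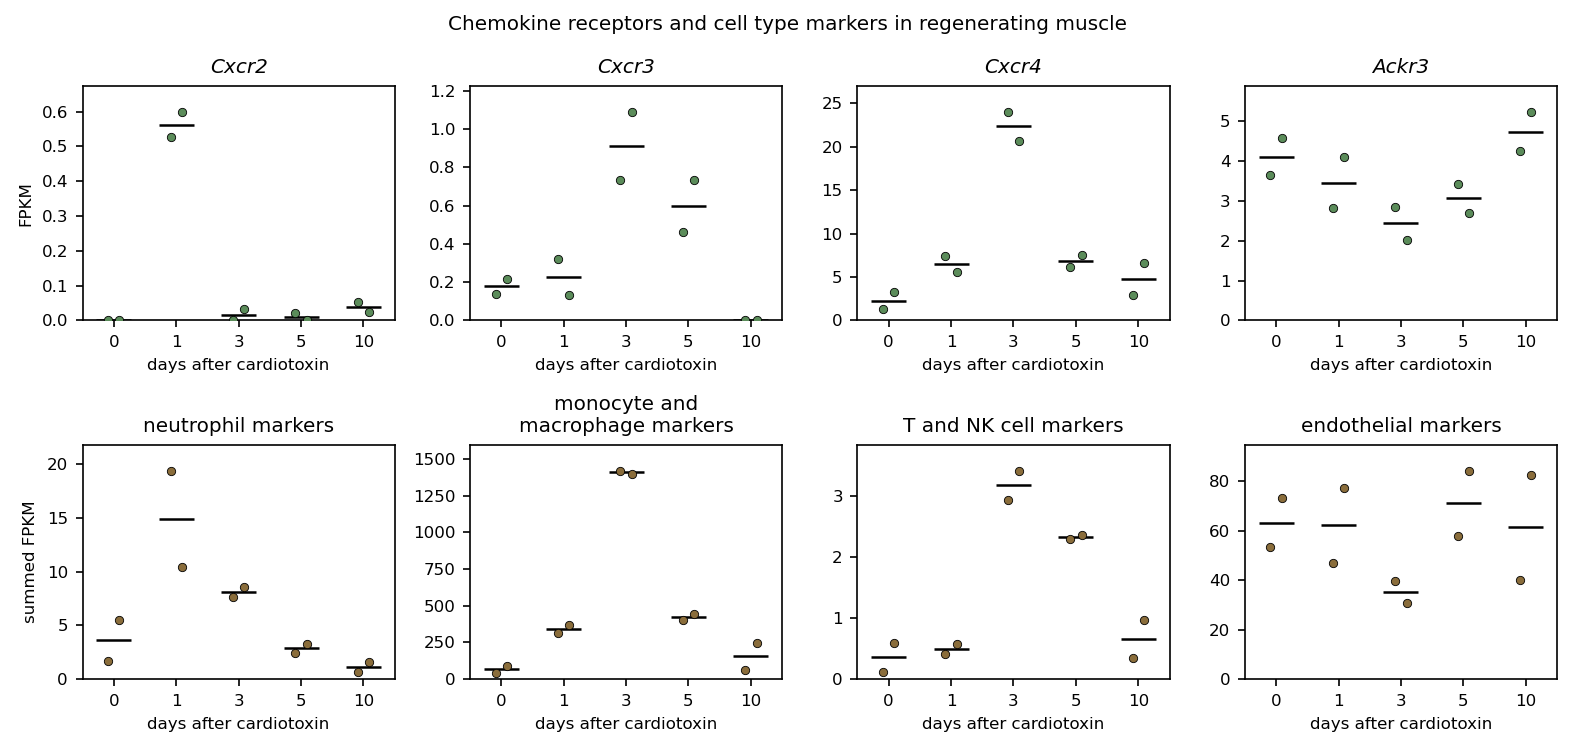
Receptors Cxcr2, Cxcr3, Cxcr4 and Ackr3 (top, FPKM) and the summed FPKM of marker lists of 4 cell types (bottom) by day after cardiotoxin. Each point is 1 library and each bar the mean of 2 libraries. Cxcr2 was above 0.5 FPKM only on day 1, Cxcr4 peaked on day 3 at 24.0 and 20.7 FPKM, and the monocyte and macrophage sum reached 1420 and 1400 FPKM on the same day.

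The other CXC ligands and the factors that act on chemokine transcripts were followed as lists. Of 7 other CXC ligands 2 were tested, the platelet ligands Pf4 and Ppbp, and both were higher on day 1 than on day 0 (3.53% of all genes were), by 3.42 (SE 0.52, adjusted p = 0.0224) and 3.53 (SE 0.76, adjusted p = 0.0425). Pf4 was still higher on day 3 (3.34, SE 0.52, adjusted p = 0.00180), whereas Ppbp fell from day 1 to day 3 by 3.57 (SE 0.76, adjusted p = 0.0125). Ppbp passed the filter only through day 1, so the filter favoured its calls. The 3 platelet markers Itga2b, Gp1bb and Gp9 summed to 0.324 to 1.17 FPKM over the muscle libraries. The 1 of them tested was called in no comparison between days, and the part of platelets in the Pf4 and Ppbp values was not tested. Cxcl3, another ELR ligand, was at 0.252 and 0.171 FPKM on day 0, 0.399 and 0.261 on day 1 and at most at 0.0290 FPKM later, below the filter. Of 9 NF-kB inducers and subunits, 2 were higher on day 1 (3.53% of all genes were), Nfkb2 by 1.28 (SE 0.29, adjusted p = 0.0478) and the inhibitor Nfkbia by 1.12 (SE 0.19, adjusted p = 0.0269). On day 3, 2 of these 9 were higher than on day 0 (Nfkbiz and Nfkb2) and 1 was lower (Il1a), against 24.5% and 24.3% of all genes. Il1a reached 0.5 FPKM only on days 0 and 1, so the filter favoured its call. Zfp36, which binds AU-rich elements and hastens the decay of such transcripts, was higher by 1.29 on day 1 (SE 0.21, adjusted p = 0.0261) and by 1.17 on day 3 (SE 0.21, adjusted p = 0.00338), and Zc3h12a and Elavl1 were not called against day 0.

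In C2C12 cells a different set of the genes was abundant. Cxcl5 was at 32.0 to 400 FPKM over the 8 libraries, Cxcl12 at 38.8 to 97.5, Cxcl1 at 6.36 to 66.1 and Cx3cl1 at 6.85 to 32.4, whereas Cxcl16 reached 1.10, Cxcl10 0.544, Cxcl9 0.238, Cxcl14 0.227, Cx3cr1 0.138 and Cxcl2 0.0329 FPKM at most. Cxcl5 and Cxcl12 were thus the most abundant, with ranges that overlapped. Cxcl5 did not exceed 1.12 FPKM in any muscle library, but the 2 tables were scaled separately by the authors, so this contrast was not tested. The filter left 6 of the 10 genes for the test, namely Cxcl1, Cxcl5, Cxcl10, Cxcl12, Cxcl16 and Cx3cl1.

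Many markers of leukocytes were at 0 in these cells and others were not. Adgre1, Itgam and C1qa, the T and NK cell markers Cd3e, Cd3d, Cd4, Ncr1 and Klrb1c, and Csf3r, S100a9 and Retnlg were at 0 in all 8 libraries, and the endothelial sum was at most 0.222 FPKM. Ly6g was at 0 in the 4 control libraries and at 0.0336 to 0.173 FPKM in the 4 Cas9M3 libraries, Csf1r was at 0.0520 to 0.424 FPKM in all 8, and Mrc1 reached 0.0684 and Cd8a 0.00986 FPKM. Mmp8 reached 8.95 FPKM, and Ly6c2, Lyz2 and Cd68 were also detected. Each of Cxcr1 and Cxcr2, the receptors of the ELR ligands, was also at 0 in all 8 libraries.

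The 4 abundant ligands were lower in differentiated than in proliferating control cells, and Cxcl1 passed the test. Cxcl1 was at 66.1 FPKM in both control GM libraries and at 6.36 and 7.53 in the control DM3 libraries. Cxcl5 was at 400 and 237 FPKM in control GM and at 32.0 and 46.6 in control DM3. Cxcl12 was at 96.7 and 89.6 FPKM in control GM and at 38.8 and 41.1 in control DM3. Cx3cl1 was at 27.9 and 16.2 FPKM in control GM and at 7.20 and 6.85 in control DM3. For these 4 genes both DM3 libraries lay below both GM libraries.

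Of the 6 genes tested 1 was called between control DM3 and control GM (1.14% of all 13824 genes tested). Cxcl1 fell by 3.24 on the log2 scale (SE 0.28, adjusted p = 0.0206). Cxcl5 differed by -2.99 (SE 0.48, adjusted p = 0.0517), Cx3cl1 by -1.58 (SE 0.29, adjusted p = 0.0704) and Cxcl12 by -1.22 (SE 0.32, adjusted p = 0.139), and none was called. With the replicate number as a block, which pairs these libraries, Cxcl5 was called as well (adjusted p = 0.0307). The call of Cxcl1 was lost without any 1 DM3 library, control or Cas9M3, and in a fit of only these 2 groups, with values of -3.36 to -3.12. Without replicate 1 of control GM 3 genes were called, Cxcl1, Cxcl5 and Cx3cl1, and without replicate 2 of control GM 2 were called, Cxcl1 and Cx3cl1.

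**Figure D4:**
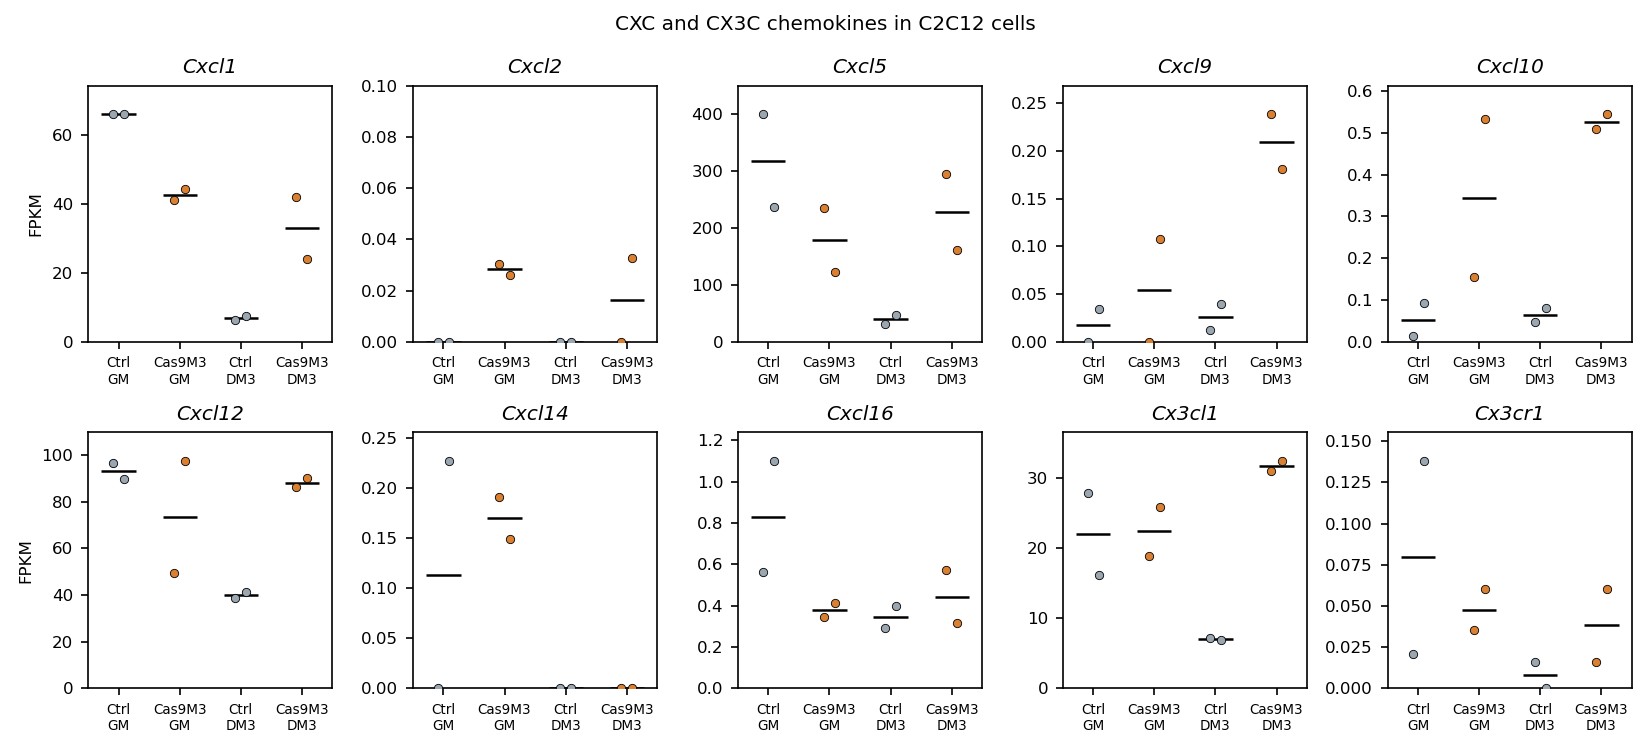
FPKM of the 10 genes (y axis, linear from 0, scaled separately per gene) in control (grey) and Cas9M3 (orange) C2C12 cells in growth medium (GM) and on day 3 of differentiation (DM3). Each point is 1 library and each bar the mean of 2. For Cxcl1, Cxcl5, Cxcl12 and Cx3cl1 the control DM3 libraries are the lowest of the 4 groups, and both Cas9M3 DM3 libraries lie above them.

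At DM3 the same 4 ligands were higher in Cas9M3 than in control cells, and Cxcl1 and Cx3cl1 passed the test. Cxcl1 was at 42.0 and 24.0 FPKM in the Cas9M3 DM3 libraries, against 6.36 and 7.53 in control DM3. Cx3cl1 was at 30.9 and 32.4 FPKM, against 7.20 and 6.85 in control DM3. Cxcl5 was at 296 and 161 FPKM, against 32.0 and 46.6, and Cxcl12 at 86.2 and 90.1 FPKM, against 38.8 and 41.1. For all 4 genes both Cas9M3 DM3 libraries lay above both control DM3 libraries.

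Limma called 2 of the 6 genes at DM3 (1.98% of all genes tested). Cxcl1 was higher in Cas9M3 cells by 2.18 on the log2 scale (SE 0.28, adjusted p = 0.0264) and Cx3cl1 by 2.15 (SE 0.29, adjusted p = 0.0300). Cxcl5 differed by 2.49 (SE 0.48, adjusted p = 0.0645) and Cxcl12 by 1.14 (SE 0.32, adjusted p = 0.131), and neither was called. With the replicate block Cxcl5 was called as well (adjusted p = 0.0360). Leaving out any 1 of the 4 DM3 libraries left 0 of the 6 genes called, with changes of 1.78 to 2.59 for Cxcl1 and 2.12 to 2.19 for Cx3cl1. In a fit of the DM3 groups alone 5 were called, with Cxcl5, Cxcl10 and Cxcl12 beside Cxcl1 and Cx3cl1. Cxcl10 passed the filter only through Cas9M3 libraries, so the filter favoured its call in that fit.

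The interferon-induced ligands were scarce in these cells. Cxcl10 was at 0.0140 and 0.0920 FPKM in control GM, 0.155 and 0.532 in Cas9M3 GM, 0.0486 and 0.0800 in control DM3, and 0.510 and 0.544 in Cas9M3 DM3. These values stand on 1 to 3 reads in each control library and 11 to 32 reads in each Cas9M3 library. All 4 Cas9M3 libraries lay above all 4 control libraries, and the changes of 1.44 in GM (SE 0.65, adjusted p = 0.584) and 1.94 at DM3 (SE 0.65, adjusted p = 0.194) were not called. Cxcl9, which did not pass the filter, was at 0 and 0.0343 FPKM in control GM, 0 and 0.108 in Cas9M3 GM, 0.0121 and 0.0398 in control DM3, and 0.238 and 0.181 in Cas9M3 DM3. Limma called 0 of the 4 genes tested of the interferon-gamma axis at DM3 (1.98% of all genes called), with 3 at an unadjusted p under 0.05 (2429 of all 13824 genes).

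Cxcl16 was at 0.562 and 1.10 FPKM in control GM, 0.346 and 0.415 in Cas9M3 GM, 0.290 and 0.398 in control DM3, and 0.570 and 0.315 in Cas9M3 DM3, and it was called in no comparison. Cxcl2 was listed at 0 in all 4 control libraries and stood on at most 2 reads in a Cas9M3 library. Cxcl14 was listed at 0 in 5 of the 8 libraries, including all 4 DM3 libraries. Cx3cr1, the receptor, stood on at most 6 reads in any library.

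In GM none of the 4 ligands passed the test between Cas9M3 and control cells. Cxcl1 was at 41.1 and 44.3 FPKM in Cas9M3 GM against 66.1 in both control libraries, and Cxcl5 at 236 and 122 FPKM against 400 and 237, so both Cas9M3 libraries lay below both control libraries. Cxcl12 was at 49.6 and 97.5 FPKM against 96.7 and 89.6, and Cx3cl1 at 18.9 and 25.9 FPKM against 27.9 and 16.2, with overlap. Limma called 0 of the 6 genes, and 0 of the 6 had an unadjusted p under 0.05 (0% of all genes called, 1244 of 13824 at an unadjusted p under 0.05). Mettl3, the targeted gene, differed by -4.10 on the log2 scale in this comparison (SE 0.40) and was not called by limma either (adjusted p = 0.188). A missing call in GM therefore does not show that a gene was unchanged. Within Cas9M3 cells 0 of the 6 genes were called between DM3 and GM (0.0289% of all genes), and again 0 of the 6 had an unadjusted p under 0.05 (1748 of all 13824 genes).

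The difference between the changes at DM3 and in GM was tested in the same fit. It was 2.81 on the log2 scale for Cxcl1 (SE 0.39, adjusted p = 0.266), 3.36 for Cxcl5 (SE 0.68, adjusted p = 0.280), 2.10 for Cx3cl1 (SE 0.41, adjusted p = 0.280) and 1.56 for Cxcl12 (SE 0.45, adjusted p = 0.406). Limma called 0 of the 6 genes (0% of all genes called), with 4 at an unadjusted p under 0.05 (1198 of all 13824 genes). The stage dependence of the change with Cas9M3 was thus not shown over all genes tested.

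**Figure D5:**
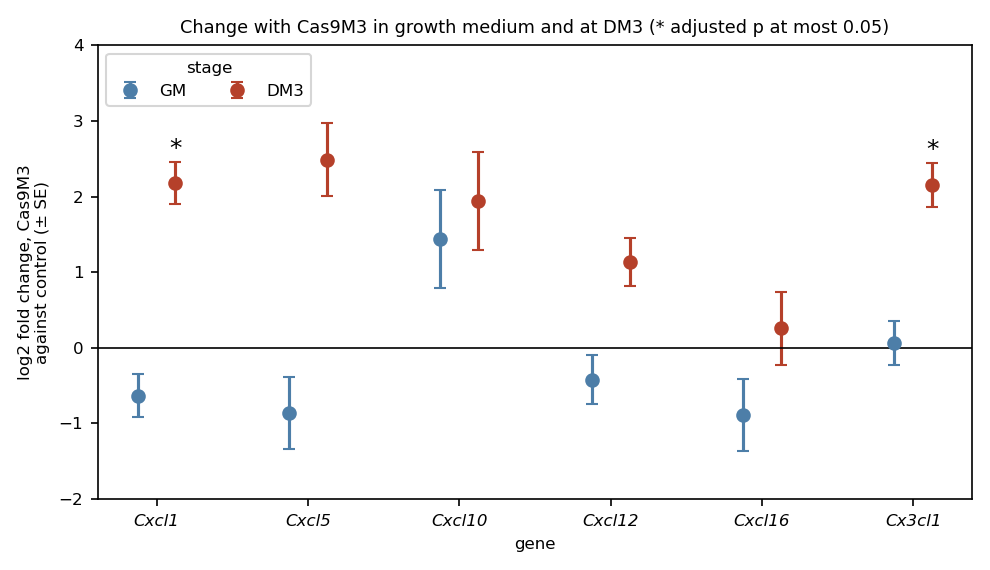
Log2 fold change of FPKM + 0.1 between Cas9M3 and control C2C12 cells (y axis) for the 6 genes tested (x axis), in growth medium (GM, blue) and at DM3 (red). Points are limma estimates, error bars 1 SE, and asterisks mark an adjusted p of at most 0.05. At DM3 Cxcl1 (2.18) and Cx3cl1 (2.15) carry an asterisk, and in GM no gene does.

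Muscle differentiation markers differed between the same DM3 groups. The 4 fibre markers summed to 422 and 370 FPKM in control DM3 and to 10.4 and 8.0 in Cas9M3 DM3, and the 4 myogenic markers to 184 and 171 FPKM against 20.5 and 20.4. Myod1, a regulator of the myoblast state, was lower in Cas9M3 DM3 (-2.80, SE 0.41, adjusted p = 0.0337), as was Ckm, the muscle creatine kinase (-5.14, SE 0.54, adjusted p = 0.0215), each being 1 of 3 tested in its list (0.687% of all genes were called lower). Monocyte and macrophage markers summed to 3.82 and 5.09 FPKM in control DM3 and to 14.1 and 24.8 in Cas9M3 DM3, mostly from Ly6c2 (1.46 and 2.78 against 6.90 and 16.4 FPKM) and Lyz2 (1.52 and 1.55 against 5.56 and 7.03 FPKM). Limma called 0 of the 3 tested (1.98% of all genes called), with 2 at an unadjusted p under 0.05 (2429 of all 13824 genes). The part of these markers in the chemokine values was not tested.

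Among the receptors, Cxcr4 was at 1.72 and 1.37 FPKM in control GM and rose to 15.6 and 14.0 in control DM3, by 3.18 on the log2 scale (SE 0.41, adjusted p = 0.0342). In Cas9M3 cells it was at 3.31 and 1.30 FPKM in GM and 4.29 and 4.44 at DM3, and the DM3 difference from control (-1.74, SE 0.41) was not called (adjusted p = 0.0972). Cxcr4 was thus higher at DM3 in control cells, where its ligand Cxcl12 stood at 38.8 and 41.1 FPKM, the lowest of the 4 groups. Of the 6 tested NF-kB inducers and subunits, the 3 factors that act on chemokine transcripts and the 2 tested proteases, limma called 0 between Cas9M3 and control at either stage. None of them had an unadjusted p under 0.05. Of all 13824 genes, 0% in GM and 1.98% at DM3 were called, and 1244 and 2429 had an unadjusted p under 0.05. Of the other CXC ligands, Ppbp (0.640 to 5.35 FPKM) and Cxcl15 (0.0887 to 0.928 FPKM) were tested and 0 were called, with 1 of the 2 at an unadjusted p under 0.05 at DM3. Il1b and Tnf, inducers of Cxcl1 in many cells, did not exceed 0.221 and 0.0384 FPKM in any C2C12 library.

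The genes whose pattern was most like that of a chemokine gene were ranked by Pearson's r of log2(FPKM + 0.1) over the libraries of a table, among 7253 genes in muscle and 8345 in C2C12 cells. These are descriptions over 10 and 8 libraries that share their days or groups. In muscle Cxcl5 was most like Ccl2 (r = 0.958), the CC ligand for monocytes, and Cxcl10 was most like Lmf2 (0.967) and Bst2 (0.952), an interferon-induced membrane protein. Cxcl9 was most like Phf12 (0.963) and Parp9 (0.960), Cxcl16 like P3h4 (0.995) and the overlapping Zmynd15 (0.993), and Cx3cr1 like Tmem173 (0.995), the sensor STING. For Cxcl12 the highest r was 0.814 (Ppig), followed by 0.788 for the endothelial receptor Tek. In C2C12 cells Cxcl1 was most like Hook2 (0.977) and Cx3cl1 like Tpsab1 (0.982), with Tlr2 (0.972) among its 3 nearest, and Cxcl10 had Oas1a (0.971), an interferon-induced enzyme, among its 3 nearest.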

How the data were processed

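Libraries were made from TRIzol total RNA with a SMARTER mRNA-Seq kit, per the labels. For each table the authors used HISAT2 (GRCm38) and featureCounts (Ensembl genes), and deposited FPKM values made with the fpkm function of DESeq2, 1 table for muscle and 1 for the knockdown. Versions and the strand setting are not given in the sources used here. The 8 libraries of Mettl3 overexpression were not analysed here.

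All 10 muscle and 8 C2C12 libraries were used. Reads behind a value were recovered from the steps between low values and exon lengths of GENCODE M21, and at least 97.04% of low values in muscle and 98.83% in C2C12 were whole within 0.05 of a read. Exact intervals cover counting error only. Each table was fitted separately with limma 3.58.1 (R 4.3.3), with a mean-variance trend, on log2(FPKM + 0.1) over all groups. Genes had to reach 0.5 FPKM in 2 libraries, which 16753 and 13824 genes did, and p-values were adjusted by Benjamini-Hochberg over all of them. Fold changes on this scale understate the change of low genes. The model script was tested on simulated data.

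Same-numbered C2C12 libraries deviated together from their group means (r = 0.278 to 0.68 in 6 of 6 pairs), so the replicate number was also fitted as a block. In muscle r was -0.019 to 0.211, over 0.1 in 2 of 10 pairs. The members and gene lists were chosen with earlier results of these data known, and the genes sharing exons were added after their values were seen. Besides the members, their receptors and partner genes, up to 3 called genes with the largest change were named per list and comparison, plus markers that carry a sum. Changes of members that were not called, likeness in C2C12 cells and list genes outside this rule (Cxcl3, Il1b, Tnf and, in C2C12 cells, Ppbp and Cxcl15) were added after their values were seen. Likeness was ranked among genes reaching 5 FPKM.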

Additional observations from a re-analysis of the deposited data

How the results depend on the processing

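No called change of a chemokine gene reversed under the alternatives run, and of 460 values recomputed for the 24 called changes 392 kept their side of the threshold and 68 lost their call. The numbers of chemokine genes called changed more. On day 1 against day 0, 1 gene was called, against 2 with a pseudocount of 1 and 0 with a filter at 1 FPKM, quantile normalization, a term for Xist-expressing libraries or only the groups compared, and 0 to 1 when 1 library was left out. On day 5 against day 0, 5 were called, against 0 with the Xist term, 2 with only the groups compared and 0 to 5 when 1 library was left out. From day 1 to day 3, 6 were called, against 2 with the Xist term and 2 to 6 when 1 library was left out. From day 3 to day 5, 0 were called, against 2 with a pseudocount of 1, quantile normalization or only the groups compared, 1 with a filter at 1 FPKM, and 0 to 2 when 1 library was left out. From day 3 to day 10, 4 were called, against 5 with a pseudocount of 0.01, 3 with the Xist term or with a log2 change of at least 2 required, and 2 to 4 when 1 library was left out. Between Cas9M3 and control cells at DM3, 2 were called, against 5 with only the groups compared, 3 with the replicate block and 0 to 3 when 1 library was left out. Between DM3 and GM in control cells, 1 was called, against 2 with a pseudocount of 1 or the replicate block, 0 with only the groups compared and 0 to 3 when 1 library was left out. The causes were not tested. Changes that were not called and the receptors, markers and other lists were not recomputed. Where leaving out 1 library leaves a group with 1, that library is assumed to vary like the other groups. The block changed no other call of a chemokine gene. The interaction cannot be computed from only the groups compared, since it uses all 4. Low depth limits Cxcl1, Cxcl2 and Cxcl5 in muscle from day 3 on and Cxcl2, Cxcl9, Cxcl10 and Cx3cr1 in C2C12 cells.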
